A study of Mus musculus with 12 samples.

Results

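The 85 genes described here are the cytosolic ribosomal protein genes of 12 mouse RNA libraries, out of 26219 genes in the deposited table. They were taken by name, as symbols that start with Rpl or Rps and a digit together with Rplp0, Rplp1, Rplp2 and Rpsa, without names ending in -ps and without the ribosomal S6 kinases. A mean of at least 5 RPM (reads scaled to a common library total) over the 12 libraries was also required. Of 86 names that matched, Rpl3l was left out at a mean of 3.89 RPM. Large subunit proteins made up 43 of the 85 rows, small subunit proteins 31 and the proteins of the ribosomal stalk 3. These 77 are called standard genes below. The remaining rows were 6 paralogs (Rpl39l, Rpl22l1, Rps27l, Rpl7l1, Rpl10l and Rpl36al), the pseudogene-named Rpl34-ps1, and Rps19bp1, which is named for binding Rps19 and is not itself a ribosomal protein. Fau, which encodes a ribosomal protein fused to a ubiquitin-like sequence, is not taken by these names and is given beside the translation genes.

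The libraries came from 6 cell lines with 2 culture replicates each, made from RNA by SC3-seq, which reads the 3′ ends of amplified cDNA. The 4 GSCLC lines, of germline stem cell-like cells, derive from reconstituted testes. For GSCLC_2 and GSCLC_3 these testes had spent 2 weeks at 37°C and a last week at 34°C (condition 2), and for GSCLC_1 and GSCLC_4 all 3 weeks at 34°C (condition 1). GSC_1 and GSC_2 are germline stem cell (GSC) lines, spermatogonial stem cells expanded in culture, each from a separate testis at postnatal day 7. All 6 lines have the C57BL/6 x 129/SvJcl background, carry the AcrAct_EGFP reporter and were grown in StemPro-34 medium with 1% serum, GDNF, bFGF, LIF and EGF. The type of line and its source, a reconstituted or a postnatal testis, cannot be told apart.

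The cytosolic ribosome joins a small subunit, which decodes the mRNA, to a large subunit, which forms peptide bonds and from which the stalk recruits translation factors. Most of its proteins are encoded by single functional genes that are transcribed at high and similar rates, and their mRNAs typically begin with a C followed by a run of pyrimidines, through which mTOR signalling and the protein Larp1 control their translation. Male germ cells are known for using a few autosomal paralogs, such as Rpl10l and Rpl39l, which stand beside X-linked genes that are silenced during meiosis.

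The RPM values of the whole table implied 3031705 to 4644184 counted reads per library. Of these, 383494 to 727702 fell in the 85 genes, and each of the 85 had at least 126 implied reads in every library. The 10 germ cell core markers (among them Dazl, Ddx4 and Zbtb16) were above 0 in all 12 libraries and summed to 3098 to 3882 RPM. Summed markers of other cell types reached at most 533 RPM for 8 fibroblast genes, 137 RPM for 7 Sertoli cell genes, 134 RPM for 7 Leydig and peritubular genes and 36.5 RPM for 7 macrophage and endothelial genes. The last 300 bases of 74 of the 85 genes share at least 1 stretch of 50 bases with another annotated gene, and 44 share at least 50% of such stretches. The levels of these genes are uncertain, since the sources used here do not say how reads with several matches were counted. The 11 with no shared stretch included Rpl10l, Rpl12, Rpl14, Rpl27a, Rpl37, Rpl39l, Rpl4, Rpl6, Rps19bp1 and Rps20.

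The ribosomal protein genes took 12.7% to 16.7% of each library. The share was 14.4% and 14.6% in GSCLC_1, 13.9% and 15.1% in GSCLC_2, 15.4% and 16.7% in GSCLC_3, and 12.9% and 12.7% in GSCLC_4. In the GSC lines it was 12.7% and 15.7% in GSC_1 and 15.9% and 14.3% in GSC_2. GSCLC_3 had the highest line mean and GSCLC_4 the lowest, while the 2 cultures of GSC_1 alone were 2.98 percentage points apart. Over lines the share averaged 14.5 ± 1.32% in GSCLC lines (SD, n = 4) and 14.6 ± 0.66% in GSC lines (SD, n = 2), so the groups overlapped. The difference was -0.19 percentage points and changed sign when a single GSC library was left out, with 0.56 points without GSC_1 replicate 2 and 0.23 points without GSC_2 replicate 1. Condition 2 lines averaged 15.3 ± 1.06% and condition 1 lines 13.6 ± 1.23% (SD, n = 2 each), and GSCLC_2 and GSCLC_1 stood at 14.5% each. Whether a lower share reflects fewer such transcripts or more of other RNA per cell cannot be told apart in bulk RNA.

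In some lines most of the 85 genes shifted one way between the 2 cultures, and in others they split. In GSC_1, 71 of 85 were higher in replicate 2 than in replicate 1, with a median log2 difference of 0.28, and in GSC_2 only 20 were higher in replicate 2, with a median of -0.14. Replicate 2 was higher for 70 genes in GSCLC_2, for 65 in GSCLC_3, for 52 in GSCLC_1 and for 36 in GSCLC_4. The median over all tested genes lay between -0.09 and 0.03 in the same 6 pairs. The lowest shares were in GSCLC_4 replicate 2 and GSC_1 replicate 1, the libraries with the fewest implied reads (3031705 and 3067893), and in GSCLC_4 replicate 1, which had 3992078. The part of depth in these shares was not tested.

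**Figure D1:**
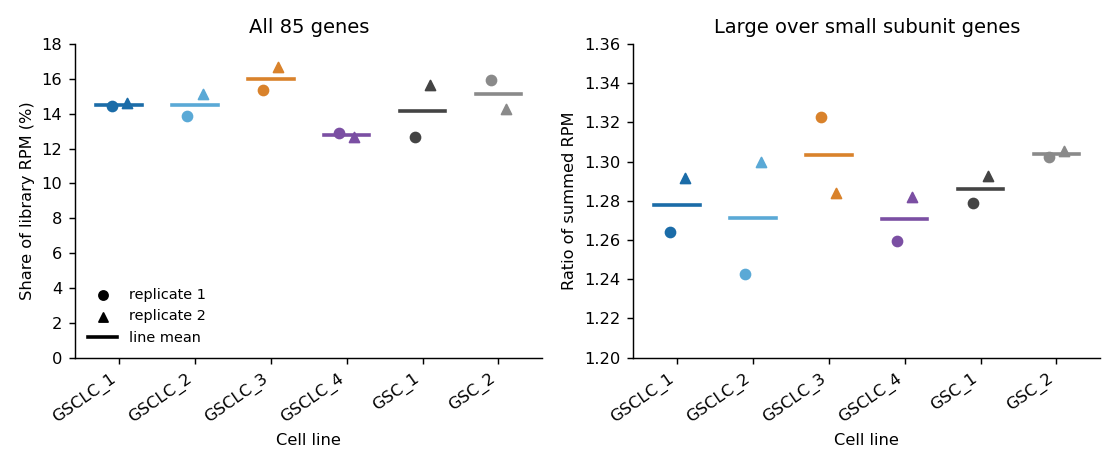
Share of library RPM taken by the 85 ribosomal protein genes (left, %) and ratio of summed RPM of large over small subunit genes (right, axis not from 0), for each cell line. Stalk genes are counted with the large subunit in the ratio. Circles and triangles are culture replicates 1 and 2 and lines are line means; GSCLC_3 is highest and GSCLC_4 lowest in share, and the ratio stays between 1.24 and 1.32.

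The large and small subunit genes kept a near constant ratio while the share varied. Large subunit genes, here summed together with the 3 stalk genes, took 6.99% to 8.84% and small subunit genes 5.51% to 6.79% of the line totals. Their ratio averaged 1.28 ± 0.02 in GSCLC lines (SD, n = 4) and 1.29 ± 0.01 in GSC lines (SD, n = 2), with single libraries from 1.24 to 1.32. Genes of mitochondrial ribosomal proteins took 0.90 ± 0.04% in GSCLC lines and 0.85 ± 0.04% in GSC lines (SD, n = 4 and 2). Their line order differed from that of the cytosolic genes, with GSCLC_2 highest at 0.96% and GSC_2 lowest at 0.82%.

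The genes stood at the top of these transcriptomes. They held 5 of the 10, 39 of the 50 and 60 of the 100 highest places by mean RPM. The values are reads per gene from 3′ ends and are not divided by length. The median over standard genes was 1812 RPM, and 60 of the 77 reached 1000 RPM on average. Rps2, a protein near the mRNA entry of the small subunit, was highest at 5122 RPM, with a lowest library of 4112 RPM in GSC_2 and a highest of 6043 RPM in GSCLC_3. Rps26, which lines the mRNA exit, was among the next at 3838 RPM. Rplp0, the base of the stalk, stood at 3660 RPM and Rps16, a small subunit head protein, at 3643 RPM. These 3 differed by less than the spread between cultures of a line, as Rps26 alone had 3375 and 4445 RPM in the 2 cultures of GSC_1.

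Below the main group, Rps19bp1 had 50.2 RPM, Rpl39 80.8 RPM, Rpl7l1 95.2 RPM, Rpl10l 275 RPM and Rpl36 287 RPM. Only 6 of the 77 standard genes were under 500 RPM. The stalk partners Rplp1 and Rplp2 stood at 2254 and 1779 RPM, Rpsa, a small subunit protein also known as a laminin receptor, at 2209 RPM, and Rps6, the substrate of the S6 kinases, at 1511 RPM. Rps19, whose human counterpart is the gene most often mutated in Diamond-Blackfan anaemia, had 758 RPM. Rpl5 and Rpl11, which together with a ribosomal RNA can bind the p53 regulator Mdm2, had 2818 and 848 RPM.

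Windows of 50 bases around the annotated start, 40 before it and 10 from it on, are shown for 8 standard genes that the results below turn on and for 3 paralogs. They come from the RefSeq promoter table on GRCm38.p6, which matched 64 of the 85 genes, and are written 5′ to 3′ on the strand of the gene. Capitals mark a C followed by at least 6 pyrimidines within 20 bases of the start.
Rpl13 (chr8:123102310-123102359, plus strand): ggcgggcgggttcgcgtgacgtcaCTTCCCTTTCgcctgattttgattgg
Rpl15 (chr14:18270977-18271026, minus strand): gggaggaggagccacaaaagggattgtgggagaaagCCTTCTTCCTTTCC
Rpl27a (chr7:109519155-109519204, plus strand): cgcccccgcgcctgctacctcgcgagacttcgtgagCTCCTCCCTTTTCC
Rps15 (chr10:80292391-80292440, plus strand): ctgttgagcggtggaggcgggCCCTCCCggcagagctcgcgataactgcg
Rpl38 (chr11:114668540-114668589, plus strand): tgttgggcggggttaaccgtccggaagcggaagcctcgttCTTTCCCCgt
Rps16 (chr7:28350649-28350698, plus strand): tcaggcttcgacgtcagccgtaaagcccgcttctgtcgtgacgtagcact
Rpl26 (chr11:68901526-68901575, plus strand): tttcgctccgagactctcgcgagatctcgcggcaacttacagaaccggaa
Rps4x (chrX:102189382-102189431, minus strand): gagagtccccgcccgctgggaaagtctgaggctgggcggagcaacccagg
Rpl22l1 (chr3:28805468-28805517, plus strand): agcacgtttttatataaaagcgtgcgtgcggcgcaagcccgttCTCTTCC
Rpl39l (chr16:10170188-10170237, plus strand): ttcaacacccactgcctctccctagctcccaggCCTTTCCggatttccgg
Rpl10l (chr12:66284392-66284441, minus strand): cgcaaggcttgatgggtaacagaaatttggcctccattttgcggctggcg

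The run lay within a few bases of the start in Rpl15, Rpl27a, Rpl38 and Rpl22l1 and upstream of it in Rpl39l, Rpl13 and Rps15, and Rps16, Rpl26, Rps4x and Rpl10l had none in the window. Among the 57 standard genes in the table, 56.1% had such a run on the gene's strand, against 21.3% of the 26961 other genes. A gene was counted if any of its listed starts matched. In the promoters of 250 bases before to 50 after the start, searched on both strands, the ETS-type motif CCGGAAG was found in 42.1% of the standard genes and 9.86% of other genes. The YY1-type motif AAGATGGC was found in 8.77% and 3.18%, the CRE motif TGACGTCA in 8.77% and 2.02%, and the TATA box letters TATAAA in 10.5% and 15.7%. These matches are descriptions of the letters and not evidence of binding.

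Differences were tested with limma on log2(RPM + 1) over 11788 genes, those that reached 5 RPM in 2 or more libraries, and all 85 genes passed this filter. Adjusted p-values are two-sided, by the Benjamini-Hochberg method over all genes tested, with 0.05 as the threshold. The first comparison asked how far GSCLC lines differed from GSC lines, with the line as the unit. Limma called 0 of the 85 genes, while 3.02% of all tested genes were called (1.21% higher and 1.81% lower), and the smallest adjusted p among the 85 was 0.0631. At an unadjusted p under 0.05, 4 of 85 were higher in GSCLC lines and 6 lower, against 7.99% and 8.93% of all genes, or 16.9% in both directions. The median log2 difference was -0.04 for the 85 genes and -0.01 for all tested genes, and 51 of the 85 were below 0, against 50.8% of all genes. Line means of the groups did not overlap for 6 genes that were higher and 9 that were lower in GSCLC lines, against 13.8% and 14.9% of all genes, or 28.6% in both directions.

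**Figure D2:**
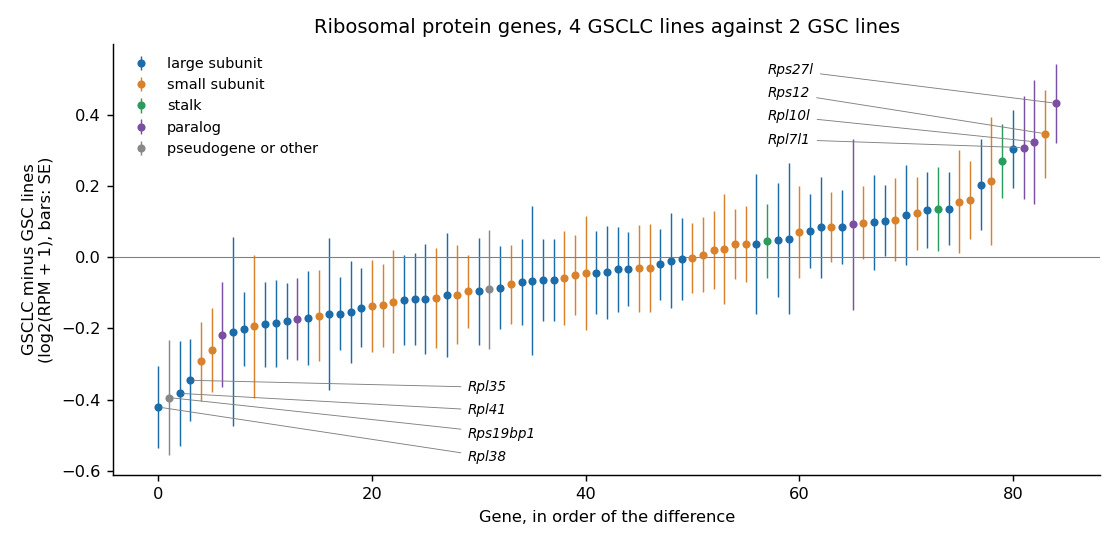
Difference of each ribosomal protein gene between the 4 GSCLC and the 2 GSC lines on the log2(RPM + 1) scale, in order of size, coloured by class, with bars for the SE from limma. The differences lie between -0.42 (Rpl38) and 0.43 (Rps27l) and none passed the threshold.

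The genes nearest to the threshold were few and small in effect, and none of the following values passed. Rps27l, a paralog of Rps27 known as a target of p53 in human cells, averaged 386 ± 26.6 RPM in GSCLC lines (SD, n = 4) and 282 ± 19.1 RPM in GSC lines (SD, n = 2). Its libraries had 361, 410, 333, 388, 328, 518, 465 and 286 RPM in GSCLC_1 to GSCLC_4, against 267, 270, 317 and 273 RPM in GSC_1 and GSC_2. All line means of the GSCLC lines were above those of the GSC lines, but GSCLC_4 replicate 2 lay within the range of the GSC libraries. The log2 difference was 0.43 ± 0.11, with adjusted p = 0.0631 by limma. Rps12, a small subunit protein that binds near the beak, differed by 0.35 ± 0.12 (adjusted p = 0.173) and Rpl10, which shapes the site of peptide transfer, by 0.30 ± 0.11 (adjusted p = 0.18). Rplp0 differed by 0.27 ± 0.10 (adjusted p = 0.213) and Rpl7l1, a paralog of Rpl7, by 0.31 ± 0.14 (adjusted p = 0.31). Rplp0 had 3638, 3801, 3812, 3892, 4439, 4024, 3668 and 3691 RPM in the GSCLC libraries and 2933, 3786, 3556 and 2675 RPM in the GSC libraries, so 1 GSC library reached into the GSCLC range.

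Rpl38, a large subunit protein whose loss in mice disturbs translation of Hox mRNAs, stood lowest in the GSCLC lines relative to the GSC lines. Its libraries had 615, 646, 622, 670, 590, 907, 612 and 553 RPM in GSCLC_1 to GSCLC_4, against 963, 725, 898 and 887 RPM in GSC_1 and GSC_2. Apart from GSCLC_3 replicate 2, all GSCLC libraries were below all GSC libraries. The log2 difference was -0.42 ± 0.11, with adjusted p = 0.0782 by limma. Rpl35, near the exit of the peptide tunnel, stood at -0.35 ± 0.12 (adjusted p = 0.145), the very short protein Rpl41 at -0.38 ± 0.15 (adjusted p = 0.211) and Rps19bp1 at -0.39 ± 0.16 (adjusted p = 0.237). Of the 85 genes, Rpl38, Rps12 and Rps27l passed in any of 27 alternative settings, in 4, 1 and 1 of them.

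The second comparison asked whether the culture of the reconstituted testis left a trace. Between conditions 2 and 1, limma called 0 of the 85 genes and 0% of all tested genes, with 0.933 as the smallest adjusted p. At an unadjusted p under 0.05, 8 of the 85 were higher and 0 lower in condition 2, against 1.30% and 3.38% of all genes, and 11 of 85 differences were below 0, against 62.1% of all genes. The median was 0.14 for the 85 genes and -0.07 for all tested genes. Rps15 had 370, 364, 372 and 373 RPM in condition 2, against 358, 311, 156 and 281 RPM in condition 1, with no overlap. Its log2 difference was 0.48 ± 0.19 (adjusted p = 0.933). Rpl15 (0.47 ± 0.19), Rpl34-ps1 (0.39 ± 0.16) and Rps16 (0.37 ± 0.16) were also among the 8, and all of these had the low values in GSCLC_4 described below. In the other direction stood Rps4x (-0.27 ± 0.20), Rps19bp1 (-0.14 ± 0.19), Rps14 (-0.09 ± 0.13), Rpl13a (-0.13 ± 0.21) and Rps27 (-0.11 ± 0.17). With 2 lines per condition, 1 line decides such values.

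Differences among single lines were tested next. A limma F-test over the 6 lines, on 12 libraries, called 21 of the 85 genes, which is 24.7%, against 20.0% of all tested genes and 25.6% of the 176 other genes of at least 500 RPM, so the share of the 85 lay near both. The spread between cultures of a line sets these p-values, which speak for these 6 lines only. The 10 with the smallest adjusted p included Rpl22l1, Rpl13, Rpl10l, Rpl36, Rpl27a, Rps4x, Rpl34, Rpl15 and Rps15, from 9.2e-05 to 0.0172. The count fell to 12 without GSCLC_1 replicate 1, 13 without GSCLC_1 replicate 2, 11 without GSCLC_2 replicate 1, 13 without GSCLC_3 replicate 2 and 12 without GSCLC_4 replicate 1, and to 2 with no filter beyond 1 library above 0. Rpl13 passed in all 26 alternative settings of this test and Rpl22l1 in 25.

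**Figure D3:**
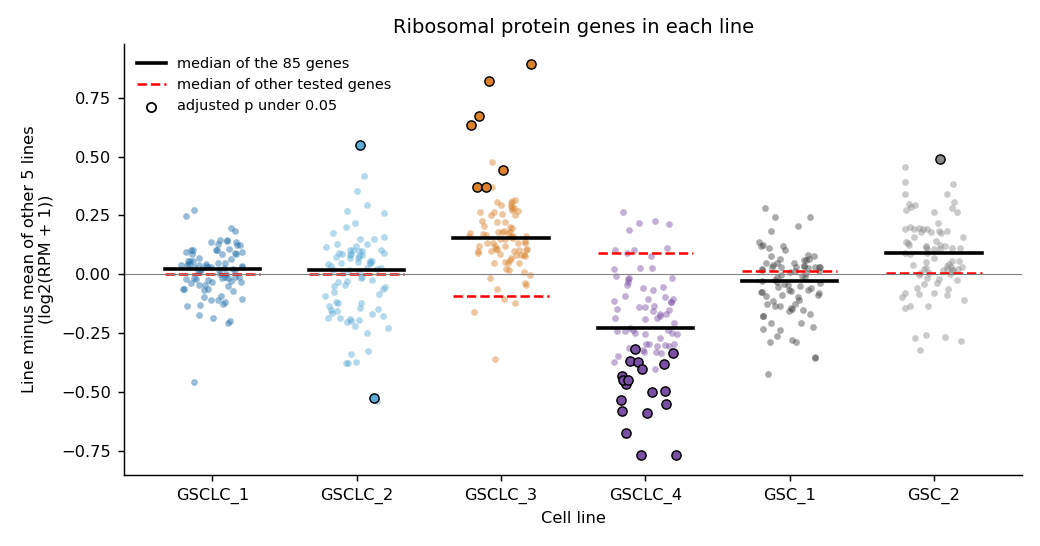
Difference of each of the 85 genes between 1 line and the mean of the other 5 lines, on the log2(RPM + 1) scale, with outlined points past the limma threshold. Black bars are medians of the 85 genes and dashed red bars medians of the other tested genes; they lie at 0.15 and -0.09 in GSCLC_3, and at -0.23 and 0.09 in GSCLC_4.

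GSCLC_4, a condition 1 line, had lower levels of many ribosomal protein genes than the other 5 lines. Limma called 19 of the 85 (22.4%) lower and 0 higher, while 3.16% of all tested genes and 10.2% of the other genes of at least 500 RPM were lower, and 6.13% and 5.11% of these were higher. Of the 85 differences 72 were below 0, which is 84.7%, against 38.6% of the other tested genes and 61.4% of the others of at least 500 RPM. The median was -0.23 for the 85 genes, 0.09 for the other tested genes and -0.07 for the others of at least 500 RPM. Both GSCLC_4 libraries were below the other 10 for 21 of the 85 genes, against 2.77% of all genes, and above them for 0, against 8.37%. The called genes comprised 10 of 43 large subunit, 7 of 31 small subunit and 0 of 3 stalk genes, with Rpl22l1 and Rpl34-ps1. The count rests on having both libraries: it was 0 lower without GSCLC_4 replicate 1, and 9 lower and 2 higher without GSCLC_4 replicate 2, with the lone library assumed to vary like the others, and it was 33 without GSC_1 replicate 1. The median ratio scaling gave 24 lower, quantile normalisation 12 lower and 2 higher, and no filter beyond 1 library above 0 gave 4 lower.

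Rps15, a small subunit head protein that human cells need to export new small subunits, had 156 and 281 RPM in the GSCLC_4 cultures, while the other 10 libraries lay at 311 to 401 RPM. The 2 cultures of GSCLC_4 differed widely from each other, and both were below all others. Its log2 difference was -0.77 ± 0.15 (adjusted p = 0.00324 by limma). Rpl15, which human cells need for assembly of the large subunit, had 390 and 552 RPM in GSCLC_4 and 552 to 831 RPM in the other libraries. The lowest of these others, GSC_1 replicate 1, lay next to GSCLC_4 replicate 2. Its difference was -0.68 ± 0.14 (adjusted p = 0.00476). Rpl13, a large subunit protein, had 473 and 624 RPM in GSCLC_4 and 604 to 1422 RPM elsewhere, with a difference of -0.77 ± 0.12 (adjusted p = 0.00076). Here GSCLC_2 replicate 1, at 604 RPM, overlapped with GSCLC_4.

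Rpl26, which lies at the exit of the peptide tunnel and is known in human cells to bind the p53 mRNA, had 2149 and 2232 RPM in GSCLC_4, against 2532 to 3642 RPM elsewhere (-0.50 ± 0.11, adjusted p = 0.00849 by limma). Rps16 had 2476 and 2801 RPM in GSCLC_4, against 3071 to 4440 RPM (-0.54 ± 0.12, adjusted p = 0.00876), and Rpl27a 1369 and 1530 RPM, against 1653 to 2344 RPM (-0.46 ± 0.10, adjusted p = 0.00525). In these 3 genes both GSCLC_4 libraries were below all others. Rpl27a has no stretch at its end in common with another gene. The other called genes included Rpl36 (-0.59), Rpl34-ps1 (-0.58), Rpl22l1 (-0.50), Rps3a (-0.45), Rps26 (-0.45), Rpl34 (-0.43), Rps21 (-0.40), Rpl35 (-0.38), Rpl36a (-0.37), Rpl14 (-0.37), Rps15a (-0.33) and Rps13 (-0.32), named after their values were seen where the naming rule had not taken them. The calls of Rps13, Rps15a and Rpl36a held in 12, 13 and 15 of 25 alternative settings. Rpl34-ps1 and Rpl36a share 100% of their end stretches with other genes and Rpl36 89.2%, against 30.2% for Rpl34. Whether Rpl34 and Rpl34-ps1 were read apart was not tested. Rps6 (-0.02), Rpsa (0.08), Rpl5 (-0.05) and Rplp0 (0.02) did not pass in GSCLC_4, with adjusted p from 0.774 to 0.938. Some genes went the other way in replicate 1 alone. Rps27 had 542 and 257 RPM, Rps28 1251 and 664 RPM and Rps29 1157 and 624 RPM in replicates 1 and 2 of GSCLC_4, and replicate 1 was the highest of all 12 libraries for each (these 3 were chosen after their values were seen). Fibroblast markers in GSCLC_4 summed to 256 and 310 RPM, above the 114 to 248 RPM of the other 6 GSCLC libraries, while the GSC libraries had 176 to 533 RPM. Their part in the lower levels was not tested.

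GSCLC_3, a condition 2 line, had the highest line mean for 41 of the 85 genes and GSC_2 for 25, counts that were not made for other genes. The share of the 85 called in GSCLC_3 was near that of other genes of at least 500 RPM. Limma called 7 of the 85 genes (8.24%) higher and 0 lower there, while 3.01% of all tested genes and 7.39% of the other genes of at least 500 RPM were higher, and 6.23% and 2.27% of these were lower. The median was 0.15 for the 85 genes and -0.09 for the other tested genes, and 89.4% of the 85 were above 0, against 38.5% of the others. The other genes of at least 500 RPM had a median of 0.01, with 51.1% above 0. Both GSCLC_3 libraries were above the other 10 for 11 of the 85 genes, against 3.84% of all genes, and below them for 0, against 6.91%. The count was 2 without GSCLC_3 replicate 2, 13 without GSC_1 replicate 2, 11 under median ratio scaling and 2 with no filter beyond 1 library above 0. The lines are each compared with a mean that holds the other lines, so the values of GSCLC_3 and GSCLC_4 are not independent of each other.

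Rpl22l1, a paralog of the RNA-binding protein Rpl22, reached 1225 and 1342 RPM in the GSCLC_3 cultures, while the other 10 libraries lay at 542 to 826 RPM. Its log2 difference was 0.90 ± 0.10 (adjusted p = 1.8e-05 by limma), and the call held in all 25 alternative settings of this test. Rpl13 had 1309 and 1422 RPM in GSCLC_3 and 473 to 1071 RPM elsewhere (0.82 ± 0.12, adjusted p = 0.0002), and its call also held in all 25. For both genes the 2 GSCLC_3 libraries were above all others. Rpl36 had 336 and 481 RPM there, against 182 to 344 RPM elsewhere (0.63 ± 0.14, adjusted p = 0.00785), so replicate 1 overlapped with GSC_1 replicate 2. Further calls were Rpl36a (0.44 ± 0.11), Rpl9 (0.37 ± 0.09) and Rpl7a (0.37 ± 0.10).

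Rpl13 (identifier 270106, chromosome 8 at 123102350 to 123105244 on GRCm38) is 1 of 2 genes of the 85 on chromosome 8. The other 629 tested genes of chromosome 8 had a median log2 difference of 0.40 in GSCLC_3 and 88.2% of them were above 0, against a median of -0.09 over the other tested genes of all chromosomes. In GSCLC_4 the same 629 genes had a median of 0.00, while Rpl13 stood at -0.77 there. The part of the chromosome in the rise of Rpl13 in GSCLC_3 was not tested. Rpl22l1 (68028) lies on chromosome 3 at 28805508 to 28807424. Of the end stretches of Rpl13, 83.3% are shared with 13 other genes, and of those of Rpl22l1, 61% with 3.

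**Figure D4:**
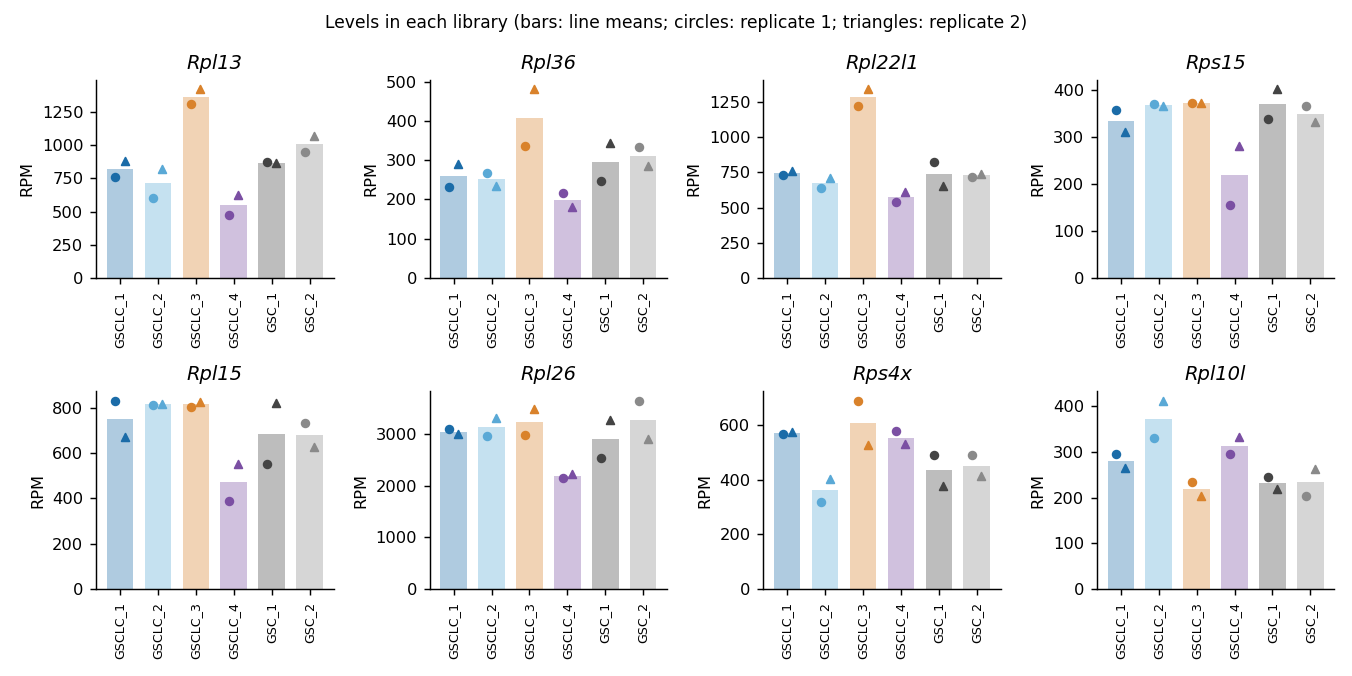
RPM of 8 ribosomal protein genes in each library, by cell line, with bars for line means and points for the culture replicates; axes start at 0. Rpl13, Rpl36 and Rpl22l1 have their highest line mean in GSCLC_3, Rps15, Rpl15 and Rpl26 their lowest in GSCLC_4, and Rps4x is low and Rpl10l high in GSCLC_2.

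GSCLC_2 differed in a pair of genes. Rpl10l, the autosomal paralog of the X-linked Rpl10 that mouse spermatocytes need for meiosis, stood at 331 and 412 RPM in GSCLC_2 and between 204 and 333 RPM elsewhere. Its difference was 0.55 ± 0.12 (adjusted p = 0.0141 by limma). Rps4x, the X-linked small subunit gene, had 318 and 402 RPM in GSCLC_2, against 377 to 688 RPM elsewhere (-0.53 ± 0.12, adjusted p = 0.0206). Both genes overlapped between the line and the others, by GSCLC_4 replicate 2 for Rpl10l and GSC_1 replicate 2 for Rps4x. The count of 1 higher and 1 lower compares with 1.60% and 1.70% of all tested genes, and it was 0 without either library of GSCLC_2. In GSC_2, Rpl41 was called higher at 2331 and 2147 RPM, with 1106 to 2296 RPM elsewhere (0.49 ± 0.14, adjusted p = 0.0436), as were 3.91% of all genes, while 3.07% were lower, and it passed in 12 of 25 alternative settings. Limma called 0 of the 85 in GSCLC_1 and in GSC_1, where 0.178% and 2.19% of all genes were higher and 0.170% and 2.40% lower.

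Paralogs and their main genes were read in the same libraries, which gives a ratio free of the library total. Rpl39l, a paralog of the X-linked Rpl39 at the peptide tunnel that mice need for normal sperm, was above Rpl39 in all 12 libraries, with ratios of reads from 2.95 in GSCLC_3 to 7.55 in GSCLC_2. By line the ratio was 3.64, 6.53, 3.38 and 5.30 in GSCLC_1 to GSCLC_4, and 5.40 and 4.68 in GSC_1 and GSC_2, so the groups overlapped. Rpl39l had 255 to 449 RPM over GSCLC libraries and 349 to 442 RPM over GSC libraries (log2 -0.22 ± 0.15, adjusted p = 0.495 by limma). Rpl39 had 51.1 to 108 RPM and 56.4 to 92.9 RPM in the same groups. Its mean of 80.8 RPM was the lowest of the 77 standard genes. Of the end stretches of Rpl39, 21.1% are shared with 6 other genes, against 0% for Rpl39l. Whether the ends of paralogs and main genes were read equally well was not tested, so these ratios compare reads and not transcripts.

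Rpl22l1 came to 0.77 of Rpl22 in GSCLC_3, against 0.42 to 0.46 in the other lines, while Rpl22 itself stood at 1459 and 1861 RPM in GSCLC_3 and 1268 to 1806 RPM elsewhere. Rps27l was about level with Rps27 in reads, at 1.14, 1.25, 1.10 and 0.94 in the GSCLC lines and 1.00 and 0.83 in the GSC lines. Of the end stretches of Rps27, 58.5% are shared with 9 other genes. Rpl10l came to 0.20 of Rpl10 in GSCLC_2 and 0.11 in GSCLC_3, the ends of its range. The ratio to the main gene was 0.41 to 0.62 for Rpl36al over lines and 0.057 to 0.087 for Rpl7l1. Rpl3l, the muscle paralog of Rpl3, had 0.539 to 7.01 RPM over libraries, against 995 to 1325 RPM for Rpl3. Rps4l was not analysed here.

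**Figure D5:**
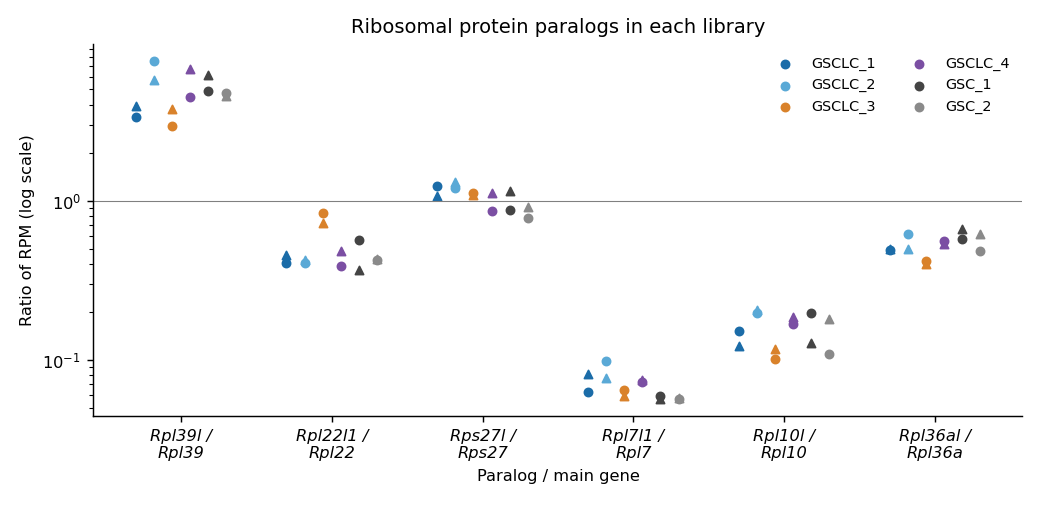
Ratio of RPM between 6 ribosomal protein paralogs and their main genes (log axis) in each library, with circles for replicate 1, triangles for replicate 2 and colours for lines. Rpl39l lies above 1 in all 12 libraries, and Rpl22l1 is higher in GSCLC_3 than in the other lines.

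Few genes that act with ribosomal proteins were called between GSCLC and GSC lines, as among all tested genes (1.21% higher and 1.81% lower). Limma called 0 of 22 translation factors and related mRNAs with pyrimidine starts, 0 of 8 chaperones of ribosomal proteins, 0 of 22 transcription and mTOR pathway genes and 0 of 8 hosts of small nucleolar RNAs. Of 49 ribosome biogenesis genes 1 was higher and 0 lower. This was Polr1a, the large subunit of RNA polymerase I, which transcribes ribosomal RNA. It had 69.0, 62.9, 74.5, 73.3, 58.0, 72.8, 78.4 and 110 RPM in the GSCLC libraries, against 39.1, 36.0, 34.5 and 36.2 RPM in the GSC libraries, with no overlap (adjusted p = 0.0123). The median log2 difference of the 49 genes was 0.11, against -0.01 for all tested genes, with 37 of 49 above 0. Line means did not overlap for 13 that were higher (26.5%, against 13.8% of all genes) and 3 that were lower (against 14.9% of all genes). Of 75 mitochondrial ribosomal protein genes 2 were higher and 0 lower. Mrps18a had 33.7, 34.0, 43.4, 36.8, 24.6, 27.0, 50.9 and 42.2 RPM in GSCLC libraries and 12.7, 12.9, 13.0 and 9.95 RPM in GSC libraries, again with no overlap. The other was Mrpl54. At an unadjusted p under 0.05 by limma, 15 of the 75 (20%) were higher and 3 lower, against 7.99% and 8.93% of all genes. Non-overlapping line means were higher for 23 (30.7%) and lower for 8, against 13.8% and 14.9% of all genes. Of the 7 genes that link ribosomal proteins to p53, 1 was lower, the cell cycle inhibitor gene Cdkn1a, with adjusted p = 0.0496. It had 31.7, 46.1, 50.1, 56.6, 57.4, 30.7, 39.6 and 45.8 RPM in GSCLC libraries, against 77.3, 125, 55.9 and 69.7 RPM in GSC libraries, so GSC_2 replicate 1 lay within the GSCLC range.

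Of the 22 translation factors and related mRNAs, 3 (13.6%) were lower in GSCLC_4 and 0 higher. Among genes of at least 500 RPM outside the ribosomal protein genes, 10.2% were lower there. In GSCLC_1, GSCLC_3 and GSC_2, 1 of the 22 was higher and 0 lower in each. Of all tested genes, 0.178%, 3.01% and 3.91% were higher in these lines. Limma called 0 of the 22 in GSCLC_2 and in GSC_1. Fau had 970 and 934 RPM in GSCLC_4, against 1009 to 1383 RPM elsewhere (-0.33 ± 0.09, adjusted p = 0.0257 by limma). Tpt1, a translationally controlled protein whose mRNA has a pyrimidine start, had 272 and 355 RPM there, against 375 to 504 RPM elsewhere (-0.49 ± 0.11, adjusted p = 0.0098). Both GSCLC_4 libraries were below all others in each gene. Of the ribosome biogenesis genes 8 of 49 (16.3%) were higher and 2 lower in GSCLC_4, with a median of 0.09, and of the mitochondrial ribosomal protein genes 5 of 75 (6.67%) were higher and 0 lower, with a median of 0.02. Among all tested genes 6.13% were higher and 3.16% lower in that line, with a median of 0.09.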

How the data were processed

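The authors deposited 1 table of RPM per gene for 12 SC3-seq libraries, each from 1 ng of RNA per the labels' protocols. Per the submitters' processing notes, the build was mm10 (GRCm38) and the tools included Cufflinks 2.2.0, TopHat 1.4.1 and cutadapt 1.3. The sources used here do not give the use of strand or the treatment of reads with several matches. Reads were implied from the even steps of RPM values within a tolerance of 0.1 and serve only to describe depth, and intervals from them would cover counting error only.

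Shares, ratios and line means were computed from RPM. Tests used limma 3.58.1 in R 4.3.3 with a mean-variance trend on log2(RPM + 1), on which scale fold changes of low genes are understated. Line means were the unit for both group comparisons, with all 3 groups sharing the spread in the second, and single libraries for comparisons of lines. The labels call the 2 libraries of a line biological replicates of culture. Adjustment followed Benjamini and Hochberg over all genes. The fits were run on simulated data that held the spread between cultures but no spread between lines. Such data do not speak for the group comparisons, whose unit is the line. Alternatives covered the pseudocount, the filter, scaling, left-out libraries and lines, and a replicate block. Same-numbered libraries of different lines did not deviate together (correlation -0.12 to 0.11 over 15 pairs, 2 of them over 0.1), so replicate numbers were not taken as pairs. Ends were compared in the GENCODE annotation of GRCm38.

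Genes named are those past the threshold in each comparison (at most 10 per direction, or for the F-test the 10 with the smallest adjusted p), the 5 per direction with the smallest p where fewer than 5 passed, the 5 highest and 5 lowest levels, the 6 widest ranges over lines, paralogs, the stalk and some genes of known role. The members, lists and tests were chosen with earlier results of these data known. Some genes that this rule names are not reported here and enter only the counts and sums.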

Additional observations from a re-analysis of the deposited data

Results flagged for a closer look

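Over the 4 GSCLC lines, 3 ribosomal protein genes had a single line far from the others, in each case GSCLC_4 on the low side. Rpl15 had a line mean of 471 RPM there, Rpl26 2190 RPM and Rps23, a protein of the decoding centre, 1553 RPM. With line means on the log2(RPM + 1) scale, the gap to the next line was 0.85, 0.851 and 0.852 of the range of the 4 lines. These gaps are above Dixon's critical value for 4 values. Gaps of single genes were not computed on the RPM scale, where they can differ. In all, 88 such groups of 4 lines were checked, and chance gives a gap of this size in about 1 in 20. Rps23 did not pass in GSCLC_4 against the other 5 lines, at -0.31 ± 0.12 with adjusted p = 0.115 by limma.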

How the results depend on the processing

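For the 85 genes, 0 calls between conditions 2 and 1 held in all 27 alternative settings. Between GSCLC and GSC lines the count was 0 to 1 with 1 library left out, and 1 under quantile normalisation, without line GSCLC_3 and without line GSCLC_4. Without a filter beyond 1 library above 0, where 20053 genes were tested, the F-test called 2 genes, GSCLC_2 0, GSCLC_3 2, GSCLC_4 4 and GSC_2 0. With 1 library left out, the F-test called 11 to 30 genes, GSCLC_1 0, GSCLC_2 0 to 5, GSCLC_3 2 to 13, GSCLC_4 0 to 33, GSC_1 0 to 1 and GSC_2 0 to 3. Without line GSCLC_4 the F-test called 11, GSCLC_2 6 and GSC_2 0. Without line GSCLC_3, GSCLC_1 had 1 call and GSC_2 had 6. GSCLC_3 had 11 calls under median ratio scaling, 12 without line GSC_1 and 11 without line GSC_2. GSC_2 had 0 calls at 20 RPM in 2 libraries, under median ratio scaling, with the 85 genes out of the total and without line GSCLC_2, 4 under quantile normalisation and 8 without line GSC_1, and GSC_1 had 1 under quantile normalisation. The cause was not tested, except that fewer samples or more genes enter these fits by construction.

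With a replicate block the 85 genes had 0 calls between GSCLC and GSC lines and 2 in GSC_2, while calls over all genes numbered 592 against 356, and 645 with the line as a random block alone. Left-out libraries gave a difference in share of -0.93 to 0.56 percentage points. In the ratio of large (with stalk) to small subunit genes they gave a difference of -0.02 to -0.01.

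The design has 2 GSC lines and 2 lines per condition, so its precision for group differences is low, and a p that misses the threshold does not show equal levels. Culture replicates of GSC_1 differed more in share than most lines did. RPM are relative to all other RNA, and the part of shared gene ends in the levels was not tested.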

Other observations

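Trp53, listed with the genes that link ribosomal proteins to p53, was listed at 1.00 RPM in GSCLC_4 replicate 1, against 59.7 RPM in GSCLC_4 replicate 2 and 41.6 to 104 RPM in the other libraries. In GSCLC_2 both libraries of Rps24, a small subunit protein mutated in some human Diamond-Blackfan anaemia, were below the other 10, at 2631 and 2738 RPM against 3071 to 4249 RPM, as for 2.97% of all tested genes. In GSC_2 both libraries of Rpl13a and Rps19bp1 were above the other 10, which is 2.35% of the 85 genes, against 4.34% of all tested genes. In GSC_1 both libraries of Rps27l were below the other 10, at 267 and 270 RPM against 273 to 518 RPM, as for 2.60% of all tested genes. These counts do not exceed the background.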
